A study of Mus musculus with 21 samples.

Results

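Cells make nucleotides, the units of RNA and DNA, through a set of 33 enzymes and enzyme subunits considered here as a group. They comprise the pyrimidine route (Cad, Dhodh, Umps, Ctps, Ctps2, Cmpk1), the supply of phosphoribosyl pyrophosphate or PRPP (Prps1, Prps2, Prpsap1, Prpsap2), the purine route to inosine monophosphate or IMP (Ppat, Gart, Pfas, Paics, Adsl, Atic), the branches from IMP to AMP and GMP (Adss, Impdh1, Impdh2, Gmps), the deoxynucleotide enzymes (Rrm1, Rrm2, Tyms, Dut, Tk1, Dtymk), the nucleoside diphosphate kinases Nme1 and Nme2, the one-carbon folate enzymes (Mthfd1, Mthfd1l, Shmt1) and the base salvage enzymes (Hprt, Aprt). The members were chosen by gene symbol, with earlier results of these data known. Each of the 33 symbols was found in the count table, which holds 41608 genes, and all 33 passed the filter on low counts, which kept 12187 genes for testing.

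The study asked how HSF1, the transcription factor of the heat-shock response, bears on transcription by c-MYC. The RNA libraries came from immortalized MEFs, mouse embryonic fibroblasts, that stably carried LacZ or V5-tagged GCN5 and were transfected for 2 days with 10 nM of a control siRNA (siControl) or of siRNA against Hsf1 (siHsf1). Each line received each siRNA, which gave 4 groups of 3 libraries, named here by siRNA and line (siHsf1 LacZ and so on). LacZ encodes a bacterial enzyme that serves as the control construct, and GCN5, encoded by Kat2a in the mouse, is a histone acetyltransferase. No source used here names the species of the GCN5 construct. The labels do not say whether libraries of a group came from separate cultures, so p-values measure the spread between libraries, which may be technical. Sites bound by c-MYC were located with CUT&RUN, a method that releases DNA near a protein by means of an antibody-tethered nuclease, in MEFs in which Hsf1 had been deleted by 7 days of 4-hydroxytamoxifen (Hsf1 CKO) or that had received ethanol (Hsf1 WT). The antibody is labelled as recognizing both c-Myc and N-Myc. One further experiment of the series, with siRNA against Myc, was not analysed here.

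As background, de novo synthesis builds the pyrimidine ring before attaching it to PRPP, whereas the purine ring is assembled atom by atom on PRPP, with carbon units donated by folates. Salvage enzymes instead attach preformed bases to PRPP. Ribonucleotide reductase and the thymidylate enzymes then convert ribonucleotides into DNA precursors, and dividing cells raise these enzymes ahead of DNA replication. Many genes of these routes are known targets of c-MYC, which binds as a dimer with MAX to the E-box, CACGTG.

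Promoter windows of RefSeq (build GRCm38.p6, from 250 bases before to 50 after a gene's start) were found for 31 of the 33 members, with Pfas and Dhodh unmatched. An E-box was present in the windows of 6 of these 31 genes (19.4%), compared with 12% of the 9232 tested genes that have a window and 7.15% of all 32817 windows. The sites are shown because the binding data below cover these starts. Each line gives 30 bases on the strand of the gene, 5′ to 3′, with the E-box in capitals.
Atic: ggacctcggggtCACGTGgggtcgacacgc
Dtymk: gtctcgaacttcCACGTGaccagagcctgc
Impdh2: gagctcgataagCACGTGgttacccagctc
Nme1 (start at 93968025): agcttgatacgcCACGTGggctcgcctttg
Nme1 (start at 93968272): gctgcggggaacCACGTGaggccggggagc
Paics: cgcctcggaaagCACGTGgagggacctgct
Tyms: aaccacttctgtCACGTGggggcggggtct

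These stretches lie at chr1:71557137-71557166 on the plus strand for Atic, chr1:93802065-93802094 on the minus strand for Dtymk, chr9:108560314-108560343 on the plus strand for Impdh2, chr11:93968037-93968066 and chr11:93968273-93968302 on the minus strand for Nme1, chr5:76951087-76951116 on the plus strand for Paics and chr5:30073669-30073698 on the minus strand for Tyms. The E-box began 7 bases before the annotated start in Atic, 148 in Dtymk, 110 in Impdh2, 29 and 18 before the respective starts of Nme1, 203 in Paics and 61 in Tyms (RefSeq starts of these windows). In the authors' gene models, which begin further upstream for these 2 genes, the site of Impdh2 and both sites of Nme1 lie inside the gene. The site of Paics lies inside the gene model of its neighbour Ppat, though outside the window of Ppat. The E-box reads the same on both strands. The variant CGCGTG was found in the window of Shmt1 (1 of 31 genes, 3.23%, against 11.8% of the tested genes with a window), and its reverse complement CACGCG in that of Prpsap1 (1 of 31, against 11.3%). For HSF1, which binds inverted repeats of nGAAn, the pair GAANNTTC was present in 1 of 31 genes (Tyms; 6.75% of the tested genes with a window) and the pair TTCNNGAA in 4 (Atic, Ctps, Hprt and Ppat; 12.9% of the members and 8.13% of those tested genes). Each of these 2 motifs also reads the same on both strands. A match describes the letters in the window and was not tested as a binding site.

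Gene counts totalled 7.22 to 8.16 M (mega) per LacZ library and 3.69 to 4.27 M per GCN5 library, so that line and depth cannot be told apart. Libraries were scaled in 2 ways. Spike-in scaling used ERCC transcripts added to RNA from equal cell numbers, and TMM scaling, which assumes that most genes do not change, used the genes themselves. The spike-in factor of a library ranged from 0.616 to 1.56 and differed between libraries of 1 group, so that the biological coefficient of variation was 0.274 with spike-in scaling and 0.089 with TMM scaling. Under spike-in scaling all tested genes had a median log2 fold change of -0.35 after knockdown in LacZ and -0.04 after knockdown in GCN5. The median was -0.40 for GCN5 over LacZ with siControl, -0.07 for the same contrast with siHsf1, and 0.32 for the knockdown effect in GCN5 minus that in LacZ. TMM scaling put all 5 medians between -0.02 and 0.02. Levels below are CPM, counts per megacount of the library, with TMM scaling unless stated.

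The targeted gene Hsf1 was at 128, 128 and 134 CPM in LacZ libraries with siControl and 57.6, 55.4 and 47.8 with siHsf1. In GCN5 libraries it was at 137, 121 and 138 with siControl and 67.9, 74.5 and 73.0 with siHsf1. Every siHsf1 library lay below every siControl library of its line (log2 fold change -1.65 ± 0.33, adjusted p = 1.2e-04, with spike-in scaling and -1.28 ± 0.077, adjusted p = 2.6e-12, with TMM in LacZ). For the GCN5 line the values were log2 fold change -0.93 ± 0.32, adjusted p = 1.00, with spike-in scaling and -0.88 ± 0.082, adjusted p = 8.2e-07, with TMM. Hsf1 fell less in the GCN5 line with TMM scaling (difference 0.41 ± 0.11, adjusted p = 0.011), though not with spike-in scaling (adjusted p = 0.76). Counts assigned to Kat2a were 215, 215 and 219.8 CPM in the LacZ line and 262, 233 and 245 in the GCN5 line under siControl, which was not called (TMM, 0.19 ± 0.061, adjusted p = 0.051), so these counts do not check the label of the line. Kat2a fell with the knockdown in LacZ, to 125, 117 and 130.1 CPM (log2 fold change -1.17 ± 0.32, adjusted p = 0.011, with spike-in scaling and -0.80 ± 0.061, adjusted p = 1.7e-10, with TMM), and was at 247, 252 and 244 in siHsf1 GCN5 libraries. Myc itself fell in the LacZ line, from 130.3, 142 and 147 to 99.4, 89.4 and 88.1 CPM (log2 fold change -0.94 ± 0.32, adjusted p = 0.049, with spike-in scaling and -0.60 ± 0.076, adjusted p = 7.2e-07, with TMM), and was at 129, 108 and 125 and 158, 144 and 139 CPM in the GCN5 line.

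Defining fibroblast genes were present, with Col1a1, Col1a2, Vim and Fn1 in every library, whereas Thy1 was at 0 in 11 of 12 libraries. Markers of endothelium summed to at most 1.40 CPM. Markers of blood cells summed to 6.56 to 8.65 CPM in the LacZ line with siControl, to more with siHsf1 (11.98 to 14.3), and to 5.41 to 6.63 and 4.56 to 6.32 in the GCN5 line, with Adgre1 and Cd3e at 0 in all 12 libraries and Ptprc in 10. Most of this was Cd68, which rose in the LacZ knockdown with TMM scaling (log2 fold change 0.92 ± 0.18, adjusted p = 2.6e-04) and was not called with spike-in scaling (adjusted p = 0.42). Epithelial markers summed to 30.9 to 62.3 CPM over the 12 libraries, nearly all of it Krt18, with Epcam at 0. Krt18 was lower in the GCN5 line under siControl with TMM scaling (-0.61 ± 0.12, adjusted p = 0.0013). The summed level of 8 fibroblast genes moved with the groups, at 6101 to 6880.3 CPM in siControl LacZ, 8803 to 10227 in siHsf1 LacZ, 7803 to 8005 in siControl GCN5 and 8086 to 8294 in siHsf1 GCN5 libraries. Of the 7 tested, 6 rose in the LacZ knockdown with TMM scaling (21.1% of all genes) and none with spike-in scaling. Their part in the results below was not tested.

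Levels of different genes can be set side by side only per transcript length, for which the authors' FPKM were used. In siControl LacZ libraries Nme2 was highest, at 481 ± 65.3 FPKM (SD, n = 3), followed by Aprt at 283 ± 32.5, Nme1 at 207 ± 22.5, Tk1 at 160.1 ± 4.49 and Rrm2 at 134 ± 6.76. Rrm2, Paics (129.8 ± 8.12) and Impdh2 (121 ± 11.8) were not separated by more than their spread. The lowest were Ctps2 at 12.5 ± 0.517 and Dhodh at 11.6 ± 1.87, which overlapped with Pfas at 12.8 ± 0.712 and Prps2 at 12.8 ± 0.723. Cad, at 35.1 ± 4.51 FPKM, lay in the lower part of the order, close to Mthfd1 (35.6 ± 2.62), Shmt1 (34.9 ± 0.921) and Cmpk1 (34.1 ± 3.58). The committed enzyme of the purine route, Ppat, was at 18.1 ± 0.853 FPKM, below every other purine-route gene except Pfas. Nme1 and Nme2 are neighbours of similar sequence, and Rrm2, Dut, Hprt and others may share reads with near-identical copies, so their levels are uncertain where the counting split such reads.

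After Hsf1 knockdown in the LacZ line the nucleotide synthesis genes were lower. With spike-in scaling 14 of 33 fell and none rose (edgeR quasi-likelihood test, adjusted p under 0.05), where 6.03% of all tested genes fell. With TMM scaling 29 of 33 fell and none rose, where 19.5% of all tested genes fell. In 28 of the 33 every siHsf1 LacZ library lay below every siControl LacZ library on the TMM scale, compared with 23.5% of all tested genes. The median log2 fold change of the members was -0.88 with spike-in scaling, where that of all genes was -0.35, and -0.51 with TMM scaling, where that of all genes was 0.02. The spike-in count changed with the libraries used. It was 3, 22 and 7 without siControl LacZ replicate 1, 2 or 3, and 29, 4 and 2 without siHsf1 LacZ replicate 1, 2 or 3. It was 0 in a fit of these 2 groups alone. With the replicate number as a block in the model it was 29, though the numbers were not shown to pair libraries by correlation across genes. The spike-in factors, which those correlations do not see, were lowest for replicate 1 in 4 of 4 groups and highest for replicate 2 in 3. With TMM scaling, leaving out any of these 6 libraries gave 27 to 29. In bulk RNA, fewer cells expressing a gene and less RNA per cell cannot be told apart.

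**Figure D1:**
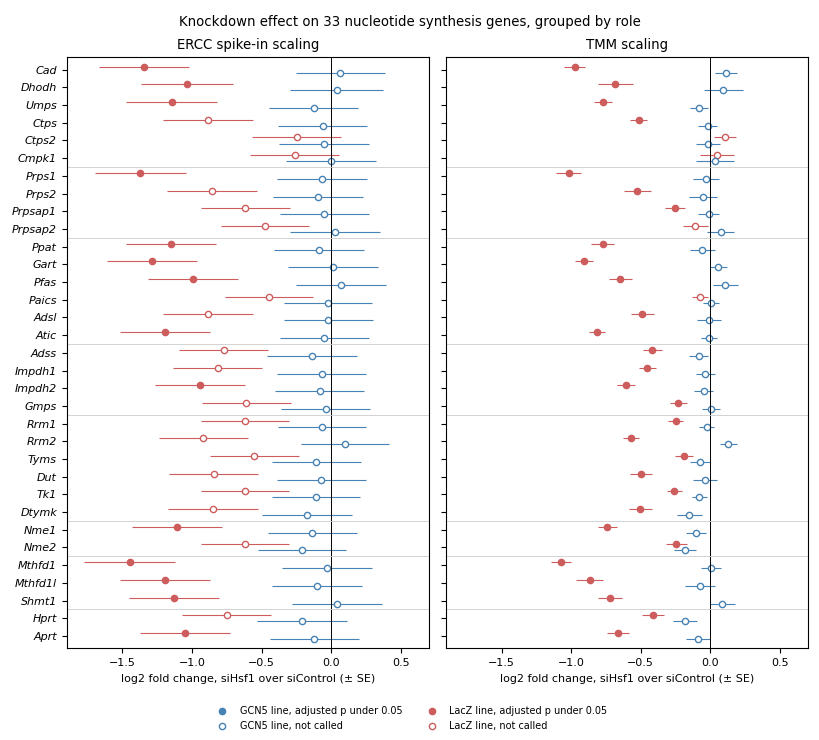
Log2 fold change of each of the 33 genes after Hsf1 knockdown (horizontal axis, ± SE, 3 against 3 libraries) in the LacZ line (red) and the GCN5 line (blue), with spike-in scaling at left and TMM scaling at right; filled points passed an adjusted p of 0.05 and grey lines part the roles. In the LacZ line 14 points are filled at left and 29 at right, all to the left of 0, and in the GCN5 line none is filled.

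In the pyrimidine route 4 of 6 genes fell with TMM scaling and 3 with spike-in scaling. Cad, whose protein joins the enzymes of the opening steps, was measured in the LacZ line at 265, 222 and 289 CPM with siControl and 143, 130.0 and 122 with siHsf1. The groups did not overlap, and the siHsf1 level was 0.509 times the control (log2 fold change -1.35 ± 0.32, adjusted p = 0.0026, with spike-in scaling and -0.98 ± 0.078, adjusted p = 7.5e-10, with TMM). Umps, which completes UMP, went from 137, 138 and 133 to 78.0, 80.9 and 79.8 CPM. Again every knockdown library was below every control (log2 fold change -1.15 ± 0.32, adjusted p = 0.013, with spike-in scaling and -0.77 ± 0.064, adjusted p = 9.3e-10, with TMM). Dhodh, the mitochondrial enzyme between them, fell by both scalings (log2 fold change -1.04 ± 0.33, adjusted p = 0.032, with spike-in scaling and -0.68 ± 0.13, adjusted p = 1.2e-04, with TMM), and Ctps, which makes CTP from UTP, fell with TMM scaling (log2 fold change -0.88 ± 0.32, adjusted p = 0.069, with spike-in scaling and -0.51 ± 0.062, adjusted p = 3.1e-07, with TMM). Ctps2, the other CTP synthetase, was at 79.9, 78.6 and 74.0 CPM in control and 88.3, 77.0 and 84.7 in knockdown libraries, and the groups overlapped (log2 fold change -0.25 ± 0.32, adjusted p = 0.66, with spike-in scaling and 0.10 ± 0.078, adjusted p = 0.31, with TMM). Cmpk1, the kinase that phosphorylates UMP and CMP, was at 63.3, 72.6 and 59.5 and 72.9, 51.5 and 77.7 CPM, with siHsf1 LacZ replicate 2 lowest and replicate 3 highest of the 6 libraries (log2 fold change -0.26 ± 0.32, adjusted p = 0.64, with spike-in scaling and 0.05 ± 0.12, adjusted p = 0.79, with TMM). Both genes were slightly positive with TMM scaling and negative with spike-in scaling, and neither was called.

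**Figure D2:**
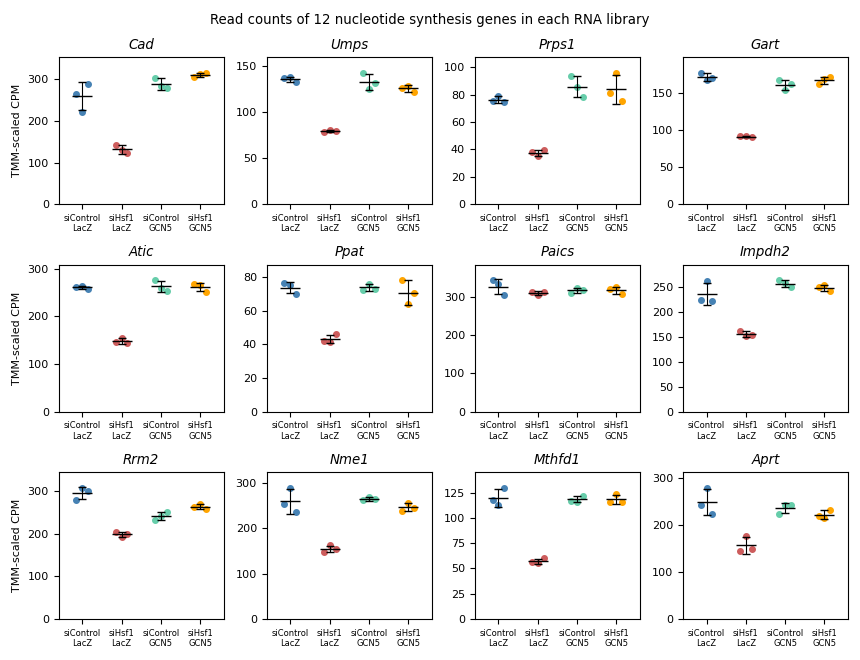
TMM-scaled CPM (vertical axis, from 0) of 12 of the genes in each library of the 4 groups (points), with the mean and SD of 3 libraries (bars). For 11 of the 12 genes the siHsf1 LacZ libraries lie below all other groups; Paics lies between 305 and 343 in all 12 libraries.

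Among the genes of PRPP supply, Prps1, an X-linked PRPP synthetase, was at 75.2, 79.1 and 74.3 CPM in control and 38.4, 35.2 and 39.5 in knockdown libraries. The groups were far apart relative to their spread, and Prps1 fell to 0.494 times the control (log2 fold change -1.37 ± 0.33, adjusted p = 0.0022, with spike-in scaling and -1.02 ± 0.090, adjusted p = 2.3e-09, with TMM). Its paralogue Prps2 was at 52.3, 56.5 and 58.5 CPM and then 41.9, 34.5 and 40.2, without overlap; it fell with TMM scaling and was not called with spike-in scaling (log2 fold change -0.86 ± 0.32, adjusted p = 0.080, with spike-in scaling and -0.52 ± 0.094, adjusted p = 8.2e-05, with TMM). The associated proteins Prpsap1 and Prpsap2 form complexes with the synthetases without catalysing the reaction. Prpsap1 fell with TMM scaling (log2 fold change -0.62 ± 0.32, adjusted p = 0.23, with spike-in scaling and -0.26 ± 0.070, adjusted p = 0.0051, with TMM). Prpsap2, at 48.9, 52.5 and 42.8 CPM in control and 44.3, 45.0 and 44.2 in knockdown libraries, overlapped between groups and was not called (log2 fold change -0.48 ± 0.32, adjusted p = 0.37, with spike-in scaling and -0.11 ± 0.089, adjusted p = 0.35, with TMM).

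On the purine route to IMP 5 of 6 genes fell with TMM scaling and 4 with spike-in scaling. Gart, whose protein carries several of its steps, was at 177, 167 and 169.8 CPM in control and 91.3, 91.3 and 90.9 in knockdown libraries, 0.533 times the control (log2 fold change -1.29 ± 0.32, adjusted p = 0.0047, with spike-in scaling and -0.91 ± 0.061, adjusted p = 2.0e-11, with TMM). The 3 knockdown values were nearly equal. Atic, which closes the purine ring, went from 262, 264 and 259 to 146, 155 and 144 CPM with no overlap (log2 fold change -1.20 ± 0.32, adjusted p = 0.0092, with spike-in scaling and -0.82 ± 0.058, adjusted p = 5.9e-11, with TMM). Ppat, which catalyses the committed step, was at 76.3, 75.0 and 69.9 and then 41.9, 41.4 and 46.0 CPM (log2 fold change -1.15 ± 0.32, adjusted p = 0.013, with spike-in scaling and -0.77 ± 0.083, adjusted p = 5.0e-08, with TMM). Pfas fell by both scalings (log2 fold change -0.99 ± 0.32, adjusted p = 0.037, with spike-in scaling and -0.65 ± 0.082, adjusted p = 7.1e-07, with TMM) and Adsl, which also acts on the way to AMP, with TMM scaling (log2 fold change -0.88 ± 0.32, adjusted p = 0.069, with spike-in scaling and -0.49 ± 0.081, adjusted p = 3.4e-05, with TMM). Of the 6 genes of the route Paics was not called. It was at 343, 333 and 305 CPM in control and 314, 305 and 314 in knockdown libraries, and the groups overlapped (log2 fold change -0.45 ± 0.32, adjusted p = 0.40, with spike-in scaling and -0.07 ± 0.057, adjusted p = 0.32, with TMM).

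Ppat and Paics lie head to head on chromosome 5, Ppat at chr5:76913249-76951578 on the minus strand and Paics at chr5:76951308-76967507 on the plus strand (GRCm38). Their starts are 270 bp apart and the gene models overlap by 271 bp. The ratio of Ppat to Paics counts within a library, which no scaling changes, was 0.222, 0.225 and 0.229 with siControl and 0.133, 0.136 and 0.147 with siHsf1 in the LacZ line. In the GCN5 line it was 0.234, 0.236 and 0.229 under siControl and 0.243, 0.196 and 0.230 under siHsf1. The 3 siHsf1 LacZ libraries were the lowest of the 12. No source used here says whether counting used strand, so reads in the overlap may have been given to either gene or to none.

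Genes of both branches from IMP fell with TMM scaling. Impdh2, which leads towards GMP, was at 223, 262 and 222 CPM in control and 162, 151 and 153 in knockdown libraries with no overlap (log2 fold change -0.94 ± 0.32, adjusted p = 0.048, with spike-in scaling and -0.60 ± 0.065, adjusted p = 6.3e-08, with TMM). Its paralogue Impdh1 was at 161, 162 and 159 CPM and then 121, 116 and 114; it fell with TMM scaling (log2 fold change -0.82 ± 0.32, adjusted p = 0.099, with spike-in scaling and -0.45 ± 0.061, adjusted p = 1.7e-06, with TMM). Gmps, which completes GMP, had a smaller change (log2 fold change -0.61 ± 0.32, adjusted p = 0.24, with spike-in scaling and -0.23 ± 0.062, adjusted p = 0.0041, with TMM), and Adss, on the branch to AMP, lay between (log2 fold change -0.77 ± 0.32, adjusted p = 0.13, with spike-in scaling and -0.42 ± 0.066, adjusted p = 1.6e-05, with TMM). All 4 genes fell with TMM scaling, and of them Impdh2 fell with spike-in scaling.

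All 6 deoxynucleotide genes fell with TMM scaling, with log2 fold changes of -0.19 to -0.57, and none was called with spike-in scaling. Rrm2, the regulated subunit of ribonucleotide reductase, was at 279, 308 and 299.8 CPM in control and 205, 193 and 199 in knockdown libraries without overlap (log2 fold change -0.92 ± 0.32, adjusted p = 0.055, with spike-in scaling and -0.57 ± 0.058, adjusted p = 2.3e-08, with TMM). Dut, which removes dUTP, went from 136, 171 and 136 to 102, 105 and 107 CPM, also without overlap (log2 fold change -0.85 ± 0.32, adjusted p = 0.085, with spike-in scaling and -0.50 ± 0.078, adjusted p = 1.4e-05, with TMM). Dtymk changed by -0.50 ± 0.081, Tk1 by -0.26 ± 0.054, Rrm1, the large subunit, by -0.25 ± 0.053, and Tyms, which makes dTMP, by -0.19 ± 0.066 (TMM scaling). The summed level of proliferation markers moved with the same groups, though not every marker did. The sum of 12 such genes was 4845 to 5021 CPM with siControl and 4072 to 4226 with siHsf1 in the LacZ line, against 4851 to 5079.9 and 4922 to 5057 in the GCN5 line. Of the 12, 7 fell with TMM scaling (19.5% of all genes), among them Top2a, Ccna2, Ccnb1 and Cdk1, and Mcm2 rose (21.1% of all genes). The replication genes Pcna, Mcm3, Mcm5 and Mcm6 were not called, with log2 fold changes of -0.05 to 0.06. With spike-in scaling 2 of the 12 fell (6.03% of all genes). Their part in the fall of the deoxynucleotide genes, or of the others, was not tested.

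Nme1 and Nme2 encode kinases that turn nucleoside diphosphates into triphosphates. Nme1 was at 254, 289.8 and 235 CPM in control and 149, 162 and 155 in knockdown libraries, with no overlap (log2 fold change -1.11 ± 0.32, adjusted p = 0.017, with spike-in scaling and -0.74 ± 0.068, adjusted p = 4.2e-09, with TMM). Nme2 was at 541, 657 and 513 and 438, 521 and 485 CPM, and its groups overlapped (log2 fold change -0.62 ± 0.32, adjusted p = 0.22, with spike-in scaling and -0.25 ± 0.077, adjusted p = 0.015, with TMM). The folate enzymes supply the carbon units of the purine ring and of dTMP, and all 3 fell by both scalings. Mthfd1, which makes the folate used in purine synthesis, was at 118, 112 and 130.0 CPM in control and 55.9, 55.3 and 60.0 in knockdown libraries. It had the most negative fold change of the 33 genes with both scalings, 0.475 times the control with TMM (log2 fold change -1.45 ± 0.33, adjusted p = 0.0010, with spike-in scaling and -1.07 ± 0.071, adjusted p = 1.4e-11, with TMM). Mthfd1l, its mitochondrial relative, went from 88.7, 81.0 and 84.2 to 55.1, 38.7 and 45.7 CPM without overlap (log2 fold change -1.20 ± 0.32, adjusted p = 0.0093, with spike-in scaling and -0.87 ± 0.099, adjusted p = 1.6e-07, with TMM). Shmt1, the cytosolic enzyme that takes a carbon from serine, fell as well (log2 fold change -1.13 ± 0.32, adjusted p = 0.016, with spike-in scaling and -0.72 ± 0.085, adjusted p = 2.5e-07, with TMM). Both base salvage genes fell with TMM scaling. Aprt, which recovers adenine, was at 243, 279.7 and 224 CPM and then 145, 177 and 149 (log2 fold change -1.05 ± 0.32, adjusted p = 0.025, with spike-in scaling and -0.67 ± 0.080, adjusted p = 5.0e-07, with TMM). Hprt, which recovers hypoxanthine and guanine, was at 135, 153 and 127 and 105, 91.7 and 116 CPM, and was called with TMM scaling alone (log2 fold change -0.75 ± 0.32, adjusted p = 0.14, with spike-in scaling and -0.41 ± 0.082, adjusted p = 2.5e-04, with TMM). Neither gene's groups overlapped.

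Within pairs of related genes the change was unequal. These pairs were chosen after their values were seen, and the ratios are given as a description without a test. From siControl to siHsf1 LacZ libraries the log2 ratio of counts (mean ± SD, n = 3) went from 1.59 ± 0.065 to 0.98 ± 0.099 for Ctps over Ctps2 and from 0.45 ± 0.094 to -0.04 ± 0.077 for Prps1 over Prps2. For Nme1 over Nme2 it went from -1.13 ± 0.045 to -1.63 ± 0.065, and for Rrm2 over Rrm1 from -0.57 ± 0.060 to -0.89 ± 0.053. For Cad over Cmpk1, the entry and a late step of the pyrimidine route, it went from 1.99 ± 0.34 to 0.99 ± 0.34. In each of these pairs every siHsf1 LacZ library was below every siControl LacZ library. Impdh2 over Impdh1 moved less with the knockdown, from 0.55 ± 0.12 to 0.40 ± 0.024, and stood higher in the GCN5 line, at 1.06 ± 0.10 under siControl and 1.05 ± 0.055 under siHsf1. In the GCN5 line siControl and siHsf1 libraries overlapped for each pair except Rrm2 over Rrm1, which was higher under siHsf1.

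**Figure D3:**
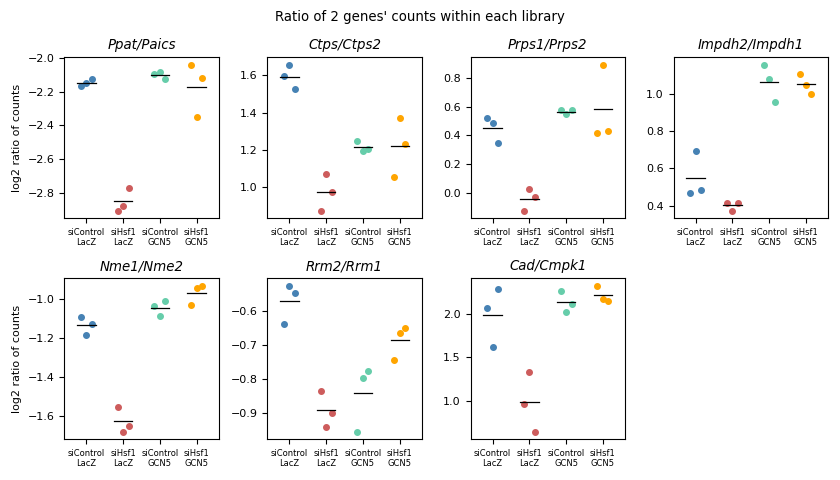
Log2 ratio of the counts of 2 genes within each library (vertical axis; points, 3 libraries per group, with the mean as a bar) for 7 pairs. In 6 pairs other than Impdh2 over Impdh1 the siHsf1 LacZ libraries lie at least 0.32 below the siControl LacZ libraries in the mean; the vertical axes do not start at 0 and differ between pairs.

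In the GCN5 line none of the 33 genes was called after Hsf1 knockdown with either scaling (edgeR), and none was with DESeq2. With TMM scaling 3 had an unadjusted p under 0.05, and 0 with spike-in scaling. Few genes of any kind were called in this comparison, 0.041% with spike-in scaling and 0.164% with TMM scaling. With TMM scaling the members' log2 fold changes lay between -0.19 and 0.13, with SEs of 0.055 to 0.14 and a median of -0.03, where the median of all genes was -0.00. With spike-in scaling they lay between -0.21 and 0.10, with SEs of 0.32 to 0.33. Nme2 had the smallest p. It was at 538, 573 and 532 CPM under siControl and 488, 491 and 468 under siHsf1, without overlap (TMM, -0.18 ± 0.079, adjusted p = 0.47). Hprt followed, at 149.7, 165 and 173 and 141, 146 and 143 CPM, also without overlap (-0.19 ± 0.086, adjusted p = 0.50). Rrm2 went the other way, from 232, 243 and 249.8 to 264, 271 and 257 CPM (0.13 ± 0.061, adjusted p = 0.51). Next came Dtymk at -0.15 ± 0.087, Nme1 at -0.10 ± 0.070 and Tk1 at -0.08 ± 0.056, with adjusted p of 0.57, 0.63 and 0.65. Cad, which fell in LacZ, was at 304, 283 and 278 CPM under siControl and 305, 313 and 315 under siHsf1 in this line. Its siHsf1 libraries were the higher ones (0.11 ± 0.079, adjusted p = 0.65).

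Under siControl few of these genes were called between the lines. Without a replicate block none of the 33 was called with spike-in scaling, by edgeR or DESeq2. Of all genes 1.5% were called, and 2 members had an unadjusted p under 0.05. All 33 fold changes were negative with this scaling (median -0.41, all genes -0.40), and 16 of 33 were with TMM scaling (median 0.00). With TMM scaling 3 genes were lower in the GCN5 line, where 4.15% of all genes were. Impdh1 was at 161, 162 and 159 CPM in LacZ and 118, 122 and 129 in GCN5 libraries, without overlap (TMM, -0.39 ± 0.063, adjusted p = 1.6e-04; spike-in, -0.79 ± 0.32, adjusted p = 0.30). Rrm2, given above in every library, was lower without overlap (TMM, -0.29 ± 0.059, adjusted p = 0.0016; spike-in adjusted p = 0.40), and so was Ctps, at 241, 248 and 213 CPM in LacZ and 203, 194 and 198 in GCN5 libraries (TMM, -0.24 ± 0.063, adjusted p = 0.017; spike-in adjusted p = 0.43). The next smallest p-values were those of Tk1 (0.16 ± 0.055, adjusted p = 0.072), Hprt (0.23 ± 0.083, adjusted p = 0.083) and Prpsap1 (0.17 ± 0.072, adjusted p = 0.15), all positive and not called. Without siControl LacZ replicate 2 the TMM count was 7, of which 4 were higher. It was 2 without siControl LacZ replicate 1 and without siControl GCN5 replicate 2 or 3.

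Under siHsf1 the genes were higher in the GCN5 line than in the LacZ line. With spike-in scaling 3 were called higher (Cad, Prps1 and Mthfd1) and none lower, where 1.82% of all genes were higher. With TMM scaling 28 were higher and none lower, where 22.2% of all genes were higher. In 28 of 33 every siHsf1 GCN5 library lay above every siHsf1 LacZ library, against 27.4% of all genes. This comparison shares the siHsf1 LacZ libraries with the LacZ knockdown, so the 2 are not independent. Cad was at 143, 130.0 and 122 CPM in siHsf1 LacZ and 305, 313 and 315 in siHsf1 GCN5 libraries (log2 fold change 1.16 ± 0.32, adjusted p = 0.010, with spike-in scaling and 1.24 ± 0.079, adjusted p = 1.2e-11, with TMM). Prps1 was at 38.4, 35.2 and 39.5 and 80.9, 95.8 and 75.1 CPM (log2 fold change 1.09 ± 0.33, adjusted p = 0.020, with spike-in scaling and 1.15 ± 0.093, adjusted p = 3.9e-10, with TMM), and Mthfd1 at 55.9, 55.3 and 60.0 and 116, 124 and 116 (log2 fold change 1.00 ± 0.32, adjusted p = 0.041, with spike-in scaling and 1.06 ± 0.073, adjusted p = 2.5e-11, with TMM). For Prps1 and Mthfd1 the siHsf1 GCN5 values overlapped those of the siControl libraries of both lines, and for Cad they lay above them. Gart, Atic and Impdh2 complete the 6 members with the smallest p with TMM scaling. Gart was at 91.3, 91.3 and 90.9 and 162, 169 and 171 CPM (0.87 ± 0.063, adjusted p = 4.8e-11; spike-in adjusted p = 0.14). Atic was at 146, 155 and 144 and 268, 266 and 251 CPM (0.82 ± 0.059, adjusted p = 6.1e-11), and Impdh2 at 162, 151 and 153 and 249.8, 254 and 241 (0.68 ± 0.067, adjusted p = 1.0e-08). No values of the groups overlapped for these 6 genes. With the replicate number as a block the spike-in count of 3 was 13. It was 6, 1 and 0 without siHsf1 LacZ replicate 1, 2 or 3, and 0, 0 and 2 without siHsf1 GCN5 replicate 1, 2 or 3. With TMM scaling it stayed between 26 and 28.

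The 5 genes not called higher with TMM scaling were Ctps2, Cmpk1, Paics, Impdh1 and Nme2. They include Ctps2, Cmpk1 and Paics, which had not fallen in the LacZ line, whereas Prpsap2, also not called there, was higher in the GCN5 line (0.33 ± 0.092, adjusted p = 0.0054).

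Whether the knockdown acted differently in the 2 lines was tested directly as the difference of the 2 log2 fold changes. With TMM scaling 23 of the 33 genes had a less negative or more positive knockdown effect in the GCN5 line (called higher), where 11.0% of all genes were called higher, and none was called lower. The members' median difference was 0.48, where that of all genes was -0.02. With spike-in scaling none of the 33 was called by edgeR or DESeq2 without a replicate block, where 0.394% of all genes were called. With the replicate number as a block 15 were called higher, though the numbers were not shown to pair libraries by correlation across genes. The spike-in factors were lowest for replicate 1 in 4 of 4 groups. The share of all genes with the block was not determined. Without the block 14 members had an unadjusted p under 0.05 and all 33 differences were positive. The median was 0.82 (all genes 0.32), and SEs were 0.45 to 0.47. Gart had the smallest p with TMM scaling, a difference of 0.97 ± 0.088 (adjusted p = 1.8e-08), and 1.30 ± 0.46 with spike-in scaling (adjusted p = 0.26). Mthfd1 followed with 1.08 ± 0.10 (adjusted p = 3.1e-08) and 1.42 ± 0.45 (adjusted p = 0.17). Then came Atic with 0.80 ± 0.083 (adjusted p = 1.3e-07), Cad with 1.09 ± 0.11 (adjusted p = 1.4e-07), Rrm2 with 0.70 ± 0.084 (adjusted p = 1.3e-06) and Prps1 with 0.98 ± 0.13 (adjusted p = 4.4e-06), all with TMM scaling. The siControl GCN5 libraries, not shown above for 4 of these, were at 167, 153 and 162 CPM for Gart, 117, 116 and 122 for Mthfd1, 276, 259.9 and 255 for Atic and 93.6, 85.6 and 78.2 for Prps1. By role the TMM count was 4 of 6 pyrimidine genes, 2 of 4 of PRPP supply, 5 of 6 of the purine route, 3 of 4 of the branches, 4 of 6 deoxynucleotide genes, 1 of 2 diphosphate kinases, 3 of 3 folate enzymes and 1 of 2 salvage enzymes. Paics, Ctps2, Cmpk1, Nme2, Tyms, Tk1, Hprt, Gmps, Prpsap1 and Prpsap2 were not called, with differences from -0.12 for Ctps2 to 0.24 for Prpsap1. Without siControl LacZ replicate 2 the spike-in count was 1, and without siHsf1 LacZ replicate 1 it was 7. With TMM scaling the count was 20 to 24 when any 1 library was left out. Other genes moved with this result with TMM scaling. The difference was 0.41 ± 0.11 for Hsf1, 0.88 ± 0.11 for Myc (adjusted p = 2.4e-06) and 0.81 ± 0.087 for Kat2a (adjusted p = 2.3e-07). Of the 12 proliferation markers 6 were called higher and 1 lower, and of the 7 tested fibroblast markers 5 were called lower. Of all genes 11.0% were called in each direction. With spike-in scaling none of these genes was called, and their part in the result was not tested.

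**Figure D4:**
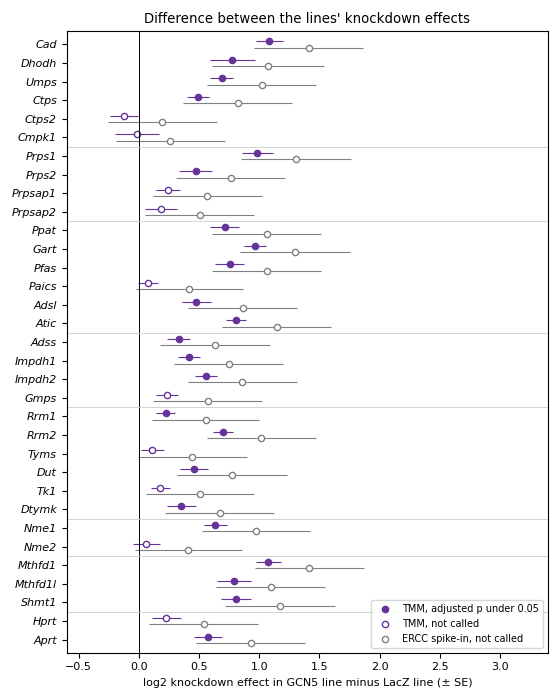
Knockdown effect in the GCN5 line minus that in the LacZ line (horizontal axis, log2, ± SE, 12 libraries) for the 33 genes, with TMM scaling (purple) and spike-in scaling (grey); filled points passed an adjusted p of 0.05. With TMM scaling 23 points are filled, all to the right of 0, and with spike-in scaling none is.

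Other genes of nucleotide metabolism, of which 57 were tested, cover nucleoside kinases, mitochondrial folate enzymes, serine synthesis, adenylate and guanylate kinases, degradation and transport. After the LacZ knockdown 28 of the 57 fell with TMM scaling (19.5% of all genes) and 8 rose (21.1% of all genes), with a TMM median of -0.28. With spike-in scaling 9 fell (6.03% of all genes) and 2 rose (0.993%). The nucleoside transporter Slc29a1 fell, with a log2 fold change of -0.91 ± 0.064 (adjusted p = 4.7e-11), and so did Psat1, an enzyme of serine synthesis, with -0.69 ± 0.059 (adjusted p = 1.3e-09). Xdh, which degrades purines to uric acid, rose by 1.06 ± 0.082 (adjusted p = 2.4e-10), and Cmpk2, a mitochondrial nucleotide kinase known as an interferon-induced gene, rose by 2.08 ± 0.17 (adjusted p = 4.2e-10). All 4 values are with TMM scaling; with spike-in scaling Xdh was not called (adjusted p = 0.21). In the GCN5 line none of the 57 was called after knockdown with either scaling. Under siControl 3 were higher (5.46% of all genes) and 4 lower (4.15%) in the GCN5 line with TMM scaling, among them Nt5e at 1.43 ± 0.28 (adjusted p = 9.7e-04) and Ampd3 at -0.53 ± 0.095 (adjusted p = 4.4e-04), and none was called with spike-in scaling. Under siHsf1 26 were higher (22.2% of all genes) and 12 lower (22.6%) with TMM scaling, and 2 higher (1.82%) and 4 lower (3.62%) with spike-in scaling. For the difference of the knockdown effects 16 were called higher and 7 lower with TMM scaling, each against 11.0% of all genes, and none with spike-in scaling. Slc29a1 differed by 0.94 ± 0.093 (adjusted p = 5.9e-08) and Xdh by -1.10 ± 0.13 (adjusted p = 6.2e-07), both with TMM scaling.

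Peaks of c-MYC were deposited as 1 list per genotype, 220037 peaks for Hsf1 WT and 6386 for Hsf1 CKO, so that no peak value has a replicate error. Together the WT peaks covered 509.9 Mb (megabases) and the CKO peaks 11.54 Mb. Within 1000 bp of the gene start a WT peak was present for 32 of the 33 genes, where 77.3% of tested genes had one. A CKO peak was present for 24 of 33, where 35.2% of tested genes had one. Since the CKO list is much shorter and has its own threshold, the absence of a peak from it does not measure a loss of binding. Rrm1 had a peak in neither list. The genes with a WT peak alone were Ctps2, Cmpk1, Prps1, Prps2, Prpsap1, Prpsap2, Tyms and Hprt, 4 of which are the genes of PRPP supply. Of the 6 genes of the purine route each had a peak in both lists, as did the 3 folate enzymes and both diphosphate kinases. Of the WT peaks 29 covered the start itself, as did 23 of the CKO peaks. The WT peak of Rrm2 ended 838 bp before the start, and those of Ctps2 and Prps2 began 482 and 88 bp after it. Widths ran from 850 bp (Ctps2) to 10635 bp (Prpsap1) in the WT list, where the median of all peaks was 1835 bp.

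**Figure D5:**
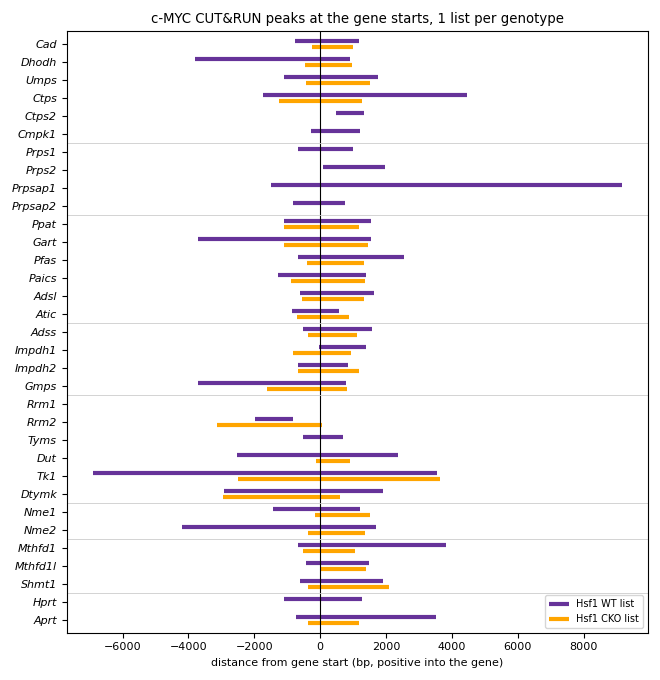
Extent of the c-MYC peak nearest the start of each of the 33 genes (horizontal axis, distance in bp from the gene start, positive into the gene) in the Hsf1 WT list (purple) and the Hsf1 CKO list (orange); a missing bar means no peak within 1000 bp. Bars are present for 32 genes in the WT list and 24 in the CKO list, and Rrm1 has none.

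The authors' signal, the coverage summed over a peak, ranks peaks within a list. In the WT list the members' peaks had a median percentile of 92.2, from 0.693 (Rrm2) to 99.9 (Tk1), and in the CKO list a median of 78.8, from 14.9 (Impdh1) to 99.6 (Tk1). These percentiles are taken among all peaks of a list, at gene starts or elsewhere, and a summed signal also depends on peak width. Start peaks of other tested genes were not ranked, so the percentiles do not set the members apart from them. At Cad the WT peak was chr5:31053926-31055876 (percentile 90.3) and the CKO peak chr5:31054432-31055696 (percentile 42.4). Gart had chr16:91645648-91650921 in the WT list (percentile 96.9) and chr16:91645753-91648297 in the CKO list (percentile 88.0). Nme2 had chr11:93954561-93960458 (percentile 99.3) and chr11:93954907-93956640 (percentile 97.5). Ppat and Paics shared 1 peak in each list, chr5:76950026-76952691 for WT and chr5:76950406-76952674 for CKO, which covered both starts; Ppat fell in the LacZ knockdown and Paics was not called. At Mthfd1, the gene with the most negative fold change, the peaks were chr12:76254567-76259044 (percentile 94.0) and chr12:76254696-76256276 (percentile 59.9). Wide peaks reach neighbouring starts. Gart lies 626 bp from Son, Gmps 86 bp from Slc33a1 and Tk1 168 bp from Afmid, so their peaks cannot be assigned to 1 gene.

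The RNA and the peaks come from different cells and treatments, so the values are given side by side. Of the 24 genes with a peak in both lists 23 fell in the LacZ knockdown with TMM scaling, with a median log2 fold change of -0.63. Of all tested genes 19.5% fell. Of the 8 with a WT peak alone 5 fell, with a median of -0.22, and Prps1 at -1.02 was the lowest of these. Rrm1, without a peak, was at -0.25. The 3 of these 8 that did not pass were Ctps2, Cmpk1 and Prpsap2. For the difference between the lines 20 of the 24 and 2 of the 8 were called higher, against 11.0% of all tested genes. No test was made between these classes. The same shares among other tested genes with such peaks were not determined, so the counts do not set the members apart from those genes.

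All 7 E-box sites shown above lay inside WT peaks, and 6 of the 7 inside CKO peaks, the exception being that of Tyms, which had no CKO peak at its start. Of the 6 genes with an E-box in the window 5 fell in the LacZ knockdown with TMM scaling (median -0.55), the exception being Paics. Of the 25 with a window and no E-box 22 fell (median -0.50). Of all tested genes 19.5% fell, and the share among those with an E-box was not determined. Ppat, which fell and is among the 25, has the Paics site inside its gene model. Atic, with the E-box nearest its start, had a fold change of -0.82 and Tyms of -0.19. Mthfd1, Prps1, Cad and Gart, with the 4 most negative fold changes on the TMM scale, had no CACGTG in their windows, which says only that these letters are not in the 300 bases searched.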

How the data were processed

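Members, related genes and markers were chosen with earlier results of these data known. The authors deposited counts per gene in whole numbers with 92 ERCC transcripts, used as they stand, and FPKM per gene, used for levels alone. For c-MYC the authors deposited 1 peak list per genotype, named as SEACR stringent calls against IgG, with a summed signal and a maximal-coverage score per peak; pooling of libraries is not stated. Per the submitters' processing notes, HISAT2, Bowtie2, SEACR and DESeq2 were used with GRCm38 or mm10; no source used here gives their versions or the counting program. Per the labels, ERCC mix 1 went to siControl and mix 2 to siHsf1 samples. Here R 4.3.3 with edgeR 4.0.16 fitted 4 group means over 12 libraries (robust quasi-likelihood, 8 residual degrees of freedom, two-sided) to genes that passed filterByExpr with a minimum count of 10. Adjusted p-values are Benjamini-Hochberg values over all 12187 genes, called under 0.05, and SE is the log2 fold change over the square root of F. The edgeR fit was tested on simulated counts with the same biological coefficient of variation, 0.089, for every gene. The outcome of that test is not given here. No spike-ins were simulated, so that test did not cover spike-in scaling. Spike-in scaling summed 23 ERCC transcripts (subgroup B), present in equal amounts in both mixes and listed from memory. The ratio of subgroup A to B was 1.36 to 1.54 in every library, without the difference between groups that 2 mixes would give. The counts therefore do not bear out the labelled mixes together with the listed subgroups. Which of these 2 is wrong was not determined. TMM scaling stands beside it throughout. Alternatives included DESeq2 1.42.0, a replicate block and leaving out each library. The limit set by a count of 0, taken as 3 counts, was 0.368 to 0.812 CPM by library and covers counting error only. Every member is named. Values per library are given, by role, for the 2 members with the smallest p in the LacZ knockdown and for members not called there with either scaling, and for up to 6 members in other comparisons. A gene's start is the outer end of its model in the authors' table. Positions are 1-based.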

Additional observations from a re-analysis of the deposited data

Results flagged for a closer look

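The effect of Hsf1 knockdown differed between the lines for 23 of the 33 genes, by edgeR's test of the difference itself with TMM scaling. With spike-in scaling it did so for none without a replicate block. It did so for 15 with the replicate number as a block, though the numbers were not shown to pair libraries by correlation across genes. The spike-in factors were lowest for replicate 1 in 4 of 4 groups. Each value below is the log2 knockdown effect in the GCN5 line minus that in the LacZ line, with TMM scaling. It was Cad 1.09, Dhodh 0.78, Umps 0.69 and Ctps 0.49 among the pyrimidine genes, and Prps1 0.98 and Prps2 0.47 in PRPP supply. On the purine route it was Ppat 0.72, Gart 0.97, Pfas 0.75, Adsl 0.48 and Atic 0.80, and on the branches to AMP and GMP Adss 0.33, Impdh1 0.42 and Impdh2 0.56. Among deoxynucleotide genes it was Rrm1 0.22, Rrm2 0.70, Dut 0.46 and Dtymk 0.35. The remaining values were Nme1 0.64 for the diphosphate kinases, Mthfd1 1.08, Mthfd1l 0.79 and Shmt1 0.81 for the folate enzymes and Aprt 0.58 for base salvage. In all 23 the fold change was more negative in the LacZ line. Depth coincides with the line and cannot be told apart from it. The knockdown effects on Hsf1, Myc and Kat2a differed between the lines in the same direction with TMM scaling, and their part in the result was not tested.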

How the results depend on the processing

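No member's fold change reversed its direction past the threshold under the alternatives to the spike-in fit, except where TMM scaling was joined with leaving out a library. In that setting, without siControl LacZ replicate 2, 4 members were called higher in the GCN5 line under siControl. All 33 fold changes of that comparison were negative in the spike-in fit. For the LacZ knockdown the count of members called, 14 with spike-in scaling, was 29 with TMM scaling, 29 with DESeq2 and its own size factors, 29 with the replicate number as a block, 29 with the replicate block and TMM scaling together, and 0 in a fit of the 2 groups alone; leaving out 1 library gave 2 to 29. The line under siControl, 0 in the main fit, gave 3 with TMM scaling, with DESeq2 and its own size factors, and with the replicate block under either scaling. For the line under siHsf1 the count of 3 was 28 with TMM scaling, 28 with DESeq2 and its own size factors, 13 with the replicate block, 28 with the replicate block and TMM scaling, and 0 to 6 without 1 library. The difference between the lines' effects, 0, was 23 with TMM scaling, 22 with DESeq2 and its own size factors, 15 with the replicate block, 23 with the replicate block and TMM scaling, and 0 to 7 without 1 library. The knockdown in GCN5 gave 0 throughout. The replicate numbers were not shown to pair the libraries. Same-numbered libraries' deviations from their group means correlated across genes at r of -0.06 to 0.10 with either scaling, over 0.1 in 1 of 12 pairs, and were most alike under the same number in 5 of 12 with TMM and 7 of 12 with spike-in scaling. These correlations do not see the spike-in factors, which were lowest for replicate 1 in 4 of 4 groups and highest for replicate 2 in 3 of 4. Spike-in totals limit these results, since their spread within a group widens every SE. Peaks at the start were found for 28 to 32 members in the WT list and 19 to 25 in the CKO list when the window, the minimal signal or the overlap was changed, the RefSeq starts being an alternative chosen after seeing the data.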
